A study of Mus musculus with 12 samples.

Results

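The 5 members of the miR-200 and miR-141 family, mmu-miR-200a-3p, mmu-miR-200b-3p, mmu-miR-200c-3p, mmu-miR-141-3p and mmu-miR-429-3p, were measured in exosomes shed by mouse granulosa cells. The rule that chose the members used their names and no measured value, and all 5 were among the 637 miRNA entries of the count tables. Small RNA was sequenced in 12 libraries, 3 in each of 4 groups, from exosomes of ovarian granulosa cells that had spent 24 h in medium free of exosomes and 48 h in culture. The CON cells were untreated. The FAC, DFO and VE cells were all loaded with iron as ferric citrate at 100 μM, which FAC received alone. Deferoxamine mesylate, a chelator that binds iron, was added at 100 μM in DFO, and VITE (vitamin E), an antioxidant soluble in lipid, was added at 200 μM in VE. The comparison of FAC with CON addressed iron overload, and those of DFO and VE with FAC addressed its treatment by a chelator or an antioxidant. The labels do not say whether the libraries of a group came from separate cultures, so p-values measure only the spread between these libraries, which may be technical.

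MicroRNAs guide Argonaute proteins to messenger RNAs, mainly by pairing through the seed near their 5′ end, and lower the output of those messenger RNAs. The miR-200 family is best known for repressing the transcription factors ZEB1 and ZEB2, which keeps epithelial cells epithelial, and it is abundant in epithelia and low in most mesenchymal cells. In female reproduction, miR-200b and miR-429 are known from mice that lack both, which fail to ovulate because the pituitary makes too little luteinizing hormone.

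The mature sequences are shown because the family falls into 2 seed groups that differ by 1 base, and because counts of such similar RNAs depend on how far a read extends. They were taken from RefSeq (GRCm38.p6), with the seed, bases 2 to 8, in capitals.
mmu-miR-200a-3p: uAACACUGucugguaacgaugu
mmu-miR-141-3p: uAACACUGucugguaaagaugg
mmu-miR-200b-3p: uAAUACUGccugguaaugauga
mmu-miR-200c-3p: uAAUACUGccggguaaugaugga
mmu-miR-429-3p: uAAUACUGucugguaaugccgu

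Counted from 1 at the 5′ end, miR-200a-3p and miR-141-3p shared the seed AACACUG, and miR-200b-3p, miR-200c-3p and miR-429-3p shared the seed AAUACUG. Between miR-200a-3p and miR-200b-3p the seeds differed by C4U. Among the 547 entries matched to a RefSeq mature sequence, no entry outside the family had either seed. The pair miR-200a-3p and miR-141-3p differed by C17A and U22G and was identical over its first 16 bases, while reads of 15 bp and longer were sequenced, so the shortest reads could not tell the pair apart. The pair miR-200b-3p and miR-200c-3p differed by U11G and A22G.

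The hairpins lie in 2 clusters on the minus strand. On GRCm38.p6, Mir200b (chr4:156055681-156055750), Mir200a (chr4:156054896-156054985) and Mir429 (chr4:156053905-156053987) lie within 1846 bases, inside introns of Ttll10, a tubulin ligase-like gene on the same strand. All 3 also lie inside the noncoding gene Gm13648, Mir429 in an exon of it. Mir200c (chr6:124718322-124718390) and Mir141 (chr6:124717914-124717985) lie within 477 bases in an intron of the antisense RNA gene Gm15884, and Mir141 partly overlaps an exon of the gene model Gm29008. The submitters' processing notes name mm9, and these positions were not converted between builds.

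The miRNA counts of a library summed to between 452021 and 1211227 in CON, 5219420 and 7565362 in FAC, 1373519 and 4877426 in DFO, and 2227419 and 3530978 in VE. They were between 1.997% and 4.998% of the library's reads in CON and between 21.6% and 30.4% in FAC. Levels are therefore given as CPM, reads per 1000000 miRNA reads, and, where the scale matters, as RPM, the deposited reads per 1000000 library reads. A count of 0 allows a level of up to 3 counts, which was between 2.48 and 6.64 CPM in a CON library and between 0.397 and 1.35 CPM in a FAC or VE library. Intervals and floors cover counting error only.

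The family was present in a few libraries and at or near 0 in the rest. Of the 60 member values, 43 were 0, 8 were 1 or 2 counts, none lay between 3 and 19 counts, and 9 were between 20 and 130 counts. Over all 637 entries, 5.65% of values lay between 3 and 19 counts and 35.5% were at 20 counts or more. The 15 member values of the VE group were all 0. In a preparation of exosomes, fewer vesicles carrying a miRNA, fewer cells of a type that sheds it and less of it per cell or vesicle cannot be told apart.

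**Figure D1:**
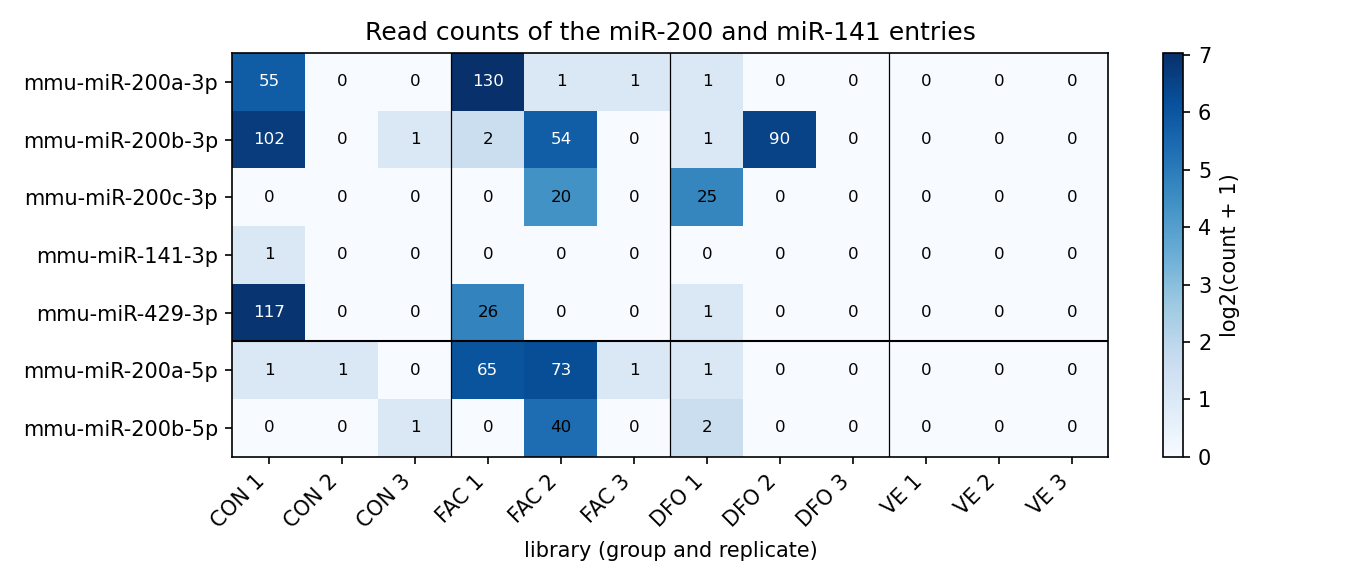
Read counts of the 5 members (above the line) and of the 2 other arms found (below it), 1 column per library, shaded by log2(count + 1). The 3 VE columns hold 0 throughout, and the 9 member values of 20 counts or more fall in CON 1, FAC 1, FAC 2, DFO 1 and DFO 2.

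mmu-miR-429-3p, of the chromosome 4 cluster, had 117, 0 and 0 counts in CON replicates 1 to 3, 26, 0 and 0 in FAC, 1, 0 and 0 in DFO and 0 in each VE library. CON replicate 1, at 96.6 CPM, held 96.2% of its CPM summed over the 12 libraries. The groups overlapped at 0, since every group had at least 2 libraries without a count.

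mmu-miR-200a-3p, its neighbour with the other seed, had 55, 0 and 0 counts in CON, 130, 1 and 1 in FAC, 1, 0 and 0 in DFO and 0 in each VE library. It was high in the first CON and the first FAC library and at 0 or 1 count in the other 10. Its group mean was 15.1 ± 26.2 CPM (SD, n = 3) in CON and 5.85 ± 9.81 CPM (SD, n = 3) in FAC. On the RPM scale the order turned, with 0.757 ± 1.31 RPM in CON and 1.77 ± 3.00 RPM in FAC (SD, n = 3).

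mmu-miR-200b-3p, the most abundant member with 250 counts in all, had 102, 0 and 1 counts in CON and 2, 54 and 0 in FAC. It had 1, 90 and 0 counts in DFO and 0 in each VE library. It was thus high in 1 library of each of CON, FAC and DFO, and the same groups overlapped at 0. Its level in those libraries was 84.2 CPM in CON replicate 1 (95% Wilson interval 69.4 to 102.2), 10.3 CPM in FAC replicate 2 (7.93 to 13.5) and 18.5 CPM in DFO replicate 2 (15.0 to 22.7).

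mmu-miR-200c-3p, of the chromosome 6 cluster, had 20 counts in FAC replicate 2, 25 in DFO replicate 1 and 0 in the other 10 libraries. Its level was 3.83 CPM in the FAC library (95% Wilson interval 2.48 to 5.92) and 8.21 CPM in the DFO library (5.56 to 12.1). The floors of CON replicates 2 and 3, 6.64 and 4.28 CPM, lay above the level of the FAC library, so their counts of 0 do not exclude a level of that size.

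mmu-miR-141-3p, the neighbour of miR-200c, had 1 count in all, in CON replicate 1. It was left out of the tests, which were run on the 547 entries that reached 10 counts in all 12 libraries together.

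By mean CPM over the 12 libraries, miR-200b-3p ranked 254th of the 637 entries at 9.59 CPM, miR-429-3p 267th at 8.36 CPM and miR-200a-3p 317th at 5.27 CPM. miR-200c-3p ranked 451st at 1.00 CPM and miR-141-3p 581st at 0.0688 CPM. The gaps between the first 3 were smaller than the range of each over libraries, and in RPM miR-200a-3p (0.635) stood above miR-429-3p (0.493).

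Members of 1 cluster did not always appear together. CON replicate 1 held miR-200a-3p, miR-200b-3p and miR-429-3p, the whole chromosome 4 cluster. FAC replicate 1 held miR-200a-3p at 130 counts and miR-429-3p at 26 beside 2 counts of miR-200b-3p. DFO replicate 2 held miR-200b-3p at 90 counts beside 0 counts of both neighbours. FAC replicate 2 held miR-200b-3p and miR-200c-3p, which share a seed but lie on different chromosomes.

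The other arms of the hairpins gave a further reading. Their sequences, from RefSeq, show that both found arms share the seed AUCUUAC, again in capitals.
mmu-miR-200a-5p: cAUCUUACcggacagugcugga
mmu-miR-200b-5p: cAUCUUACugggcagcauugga

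mmu-miR-200a-5p had 65, 73 and 1 counts in FAC, 1, 1 and 0 in CON, 1, 0 and 0 in DFO and 0 in each VE library. It was high in 2 of the 3 FAC libraries, and the third was within the range of the other groups. Over pooled counts its level was 9.03-fold higher in FAC than in CON (exact counting interval 2.45 to 75.3) and 6.01-fold higher without FAC replicate 2, its top library (1.60 to 50.7). Across libraries that comparison had an adjusted p of 0.749 (edgeR's quasi-likelihood test, Benjamini-Hochberg adjustment).

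The balance of arms changed between libraries. In CON replicate 1 there were 55 counts of miR-200a-3p and 1 of miR-200a-5p, in FAC replicate 1 there were 130 and 65, and in FAC replicate 2 there were 1 and 73. mmu-miR-200b-5p had 40 counts in FAC replicate 2, beside 54 of miR-200b-3p, and at most 2 in any other library, including CON replicate 1 and DFO replicate 2, where the 3p arm had 102 and 90. FAC replicate 2 was the library with the most entries detected, 475 of 637 against 266 to 402 in the others, and the part of this in its values was not tested.

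Summed over the 5 members, CON replicate 1 stood at 227 CPM, FAC replicates 1 and 2 at 20.9 and 14.4 CPM, and DFO replicates 1 and 2 at 9.20 and 18.5 CPM. The other 7 libraries lay between 0 and 1.43 CPM. The group means were 76.2 ± 131 CPM in CON, 11.8 ± 10.6 in FAC, 9.22 ± 9.23 in DFO and 0 in VE (SD, n = 3). In RPM the CON and FAC means were 3.80 ± 6.54 and 3.17 ± 3.16 (SD, n = 3), a smaller gap than in CPM.

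**Figure D2:**
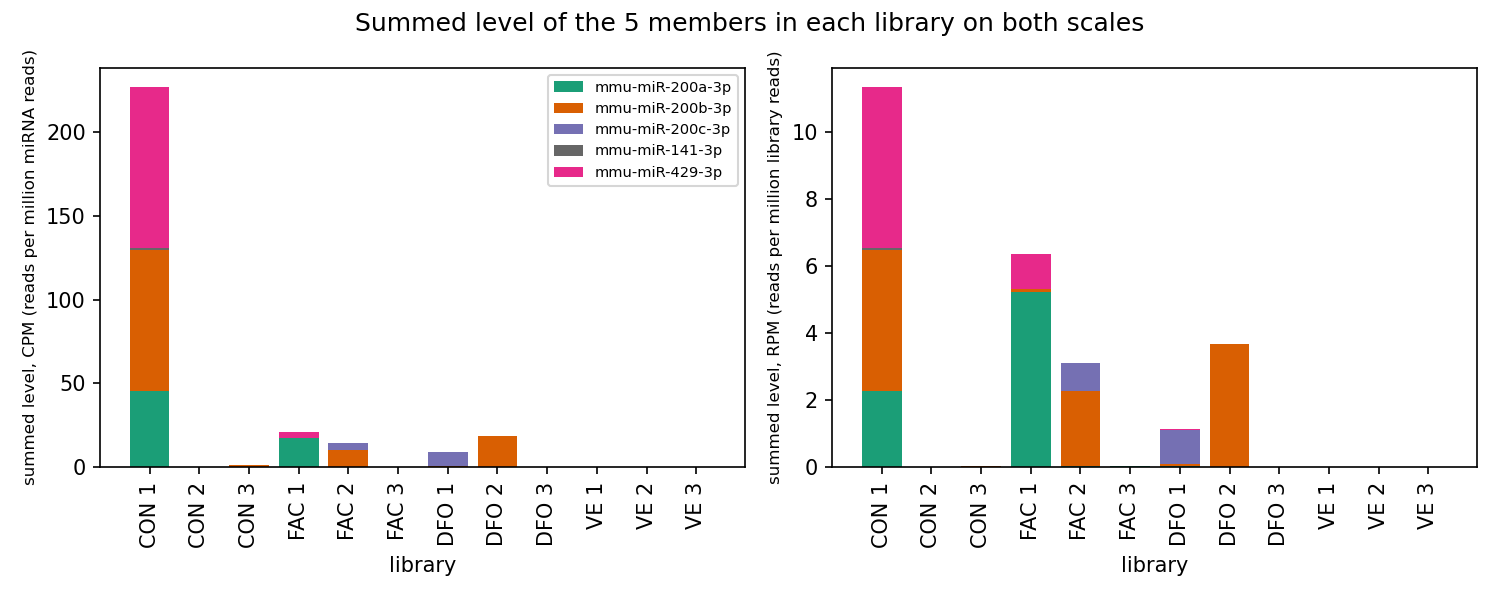
Summed level of the 5 members in each library, as CPM (left) and RPM (right), stacked by member. CON 1 reaches 227 CPM and 11.3 RPM, FAC 1 reaches 20.9 CPM and 6.36 RPM, and the VE libraries are at 0 on both scales.

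The sparse pattern was shared by other entries of like abundance. The 4 tested members reached 3 counts in 2 or 3 libraries each. Of the 315 tested entries with between 10 and 500 counts in all, 258 (81.9%) reached 3 counts in at most 3 libraries, and 181 (57.5%) were at 0 in all 3 VE libraries. Being at 0 throughout VE and in few libraries was therefore common at this abundance.

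**Figure D3:**
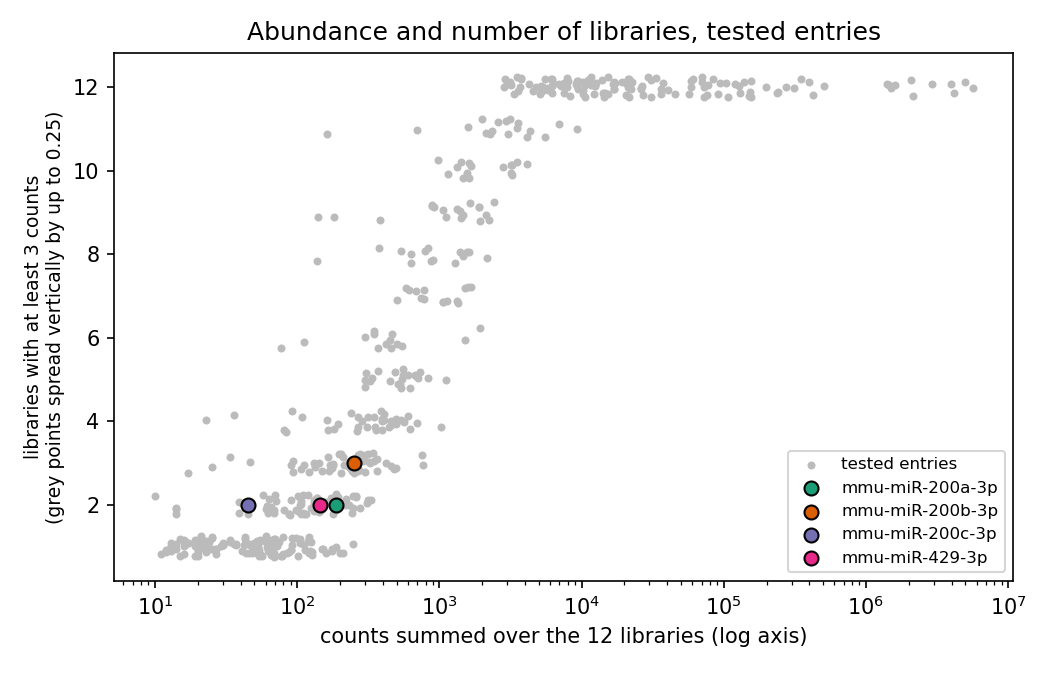
Number of libraries with at least 3 counts against counts summed over the 12 libraries (log axis) for the 547 tested entries in grey, with the 4 tested members in colour. The members sit at 2 or 3 libraries, among the other entries of 45 to 250 counts.

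In FAC against CON, which addresses iron overload, 0 of the 4 tested members passed a fold change of at least 1.5 with an unadjusted p under 0.05, against 9.51% of all entries tested. The log2 fold change was -1.54 (SE 3.33) for miR-200a-3p, -3.50 (SE 3.24) for miR-200b-3p and -4.93 (SE 3.53) for miR-429-3p, with unadjusted p between 0.164 and 0.644 (edgeR's quasi-likelihood test, lowest Benjamini-Hochberg adjusted p = 0.607). The median over all entries in this comparison was 1.38, and it was 4.35 when library read totals set the scale. It was 0.079 over the 312 entries kept by the stricter filterByExpr filter on low counts, so it depended on the sparse entries. Without CON replicate 1 the fitted values were 7.25, 1.52 and 4.94, so the negative sign rested on that library. CON then held 0, 1 and 0 counts of the 3 members, under the floor of 3, so these values are not measured folds. Without FAC replicate 1, miR-429-3p passed the threshold (log2 fold change -9.60, unadjusted p of 0.0493 in edgeR's quasi-likelihood test). FAC then held 0 counts of it, so this value too is not a measured fold.

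In DFO against FAC, which addresses the chelator, 0 of 4 tested members passed, against 12.2% of all entries. The log2 fold change was 1.15 (SE 2.96) for miR-200b-3p and 1.65 (SE 3.75) for miR-200c-3p, and the lowest p of a member was 0.188 (edgeR's quasi-likelihood test, adjusted p = 0.458). Leaving out the 1 DFO library that held the member gave fitted values of -3.44 and -4.78. DFO then held 1 and 0 counts of them, under the floor, so these are not measured folds. For miR-200a-3p, with 1 count in DFO, the pooled level was 67.4-fold higher in FAC (exact counting interval 11.9 to 2683), and without FAC replicate 1 no ratio could be formed because both groups were at or under 3 counts.

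In VE against FAC, which addresses the antioxidant, 0 of 4 tested members passed, against 9.32% of all entries. The p-values lay between 0.0770 and 0.213 (edgeR's quasi-likelihood test, lowest adjusted p = 0.521). Against the floor of 3 counts over the VE group, the pooled level in FAC was at least 21.0-fold higher for miR-200a-3p, at least 8.93-fold for miR-200b-3p, at least 4.15-fold for miR-429-3p and at least 3.19-fold for miR-200c-3p. Each of these bounds rested on 1 FAC library. The arm miR-200a-5p stood at least 22.2-fold higher in FAC and at least 14.8-fold higher without its top FAC library, with an adjusted p of 0.521 (edgeR's quasi-likelihood test).

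In DFO against CON, 0 of 4 tested members passed, against 7.68% of all entries. The log2 fold change of miR-200b-3p was -2.36 (SE 3.09), with an adjusted p of 0.906 (edgeR's quasi-likelihood test). Without CON replicate 1 the fitted value was 2.67, with 1 count left in CON, so it is not a measured fold. The lowest p was that of miR-429-3p, at 0.0567 (adjusted p = 0.653, edgeR's quasi-likelihood test), with 117 counts in CON, all in replicate 1, against 1 in DFO.

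In VE against CON, 3 of 4 tested members were lower in VE past the threshold, against 10.4% of all entries past it in either direction. The other tested member, miR-200c-3p, had 0 counts in both groups and could not pass. Their unadjusted p was 0.0209 for miR-200b-3p, 0.0222 for miR-429-3p and 0.0469 for miR-200a-3p, and none passed after adjustment (edgeR's quasi-likelihood test, Benjamini-Hochberg adjusted p = 0.434, 0.434 and 0.460). The pooled level in CON was at least 126-fold higher for miR-200b-3p, at least 144-fold for miR-429-3p and at least 67.5-fold for miR-200a-3p. All 3 rested on CON replicate 1: without it 0 members passed, and CON and VE were then both at or under 3 counts. At the level of CON replicate 1, the VE libraries would have held between 101 and 160 counts of miR-200a-3p and between 215 and 341 of miR-429-3p. CON replicates 2 and 3 would have held between 20.5 and 31.8 counts of miR-200a-3p and between 43.7 and 67.7 of miR-429-3p, and held 0. The comparisons of DFO and VE with CON share the CON libraries, and those with FAC share the FAC libraries.

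**Figure D4:**
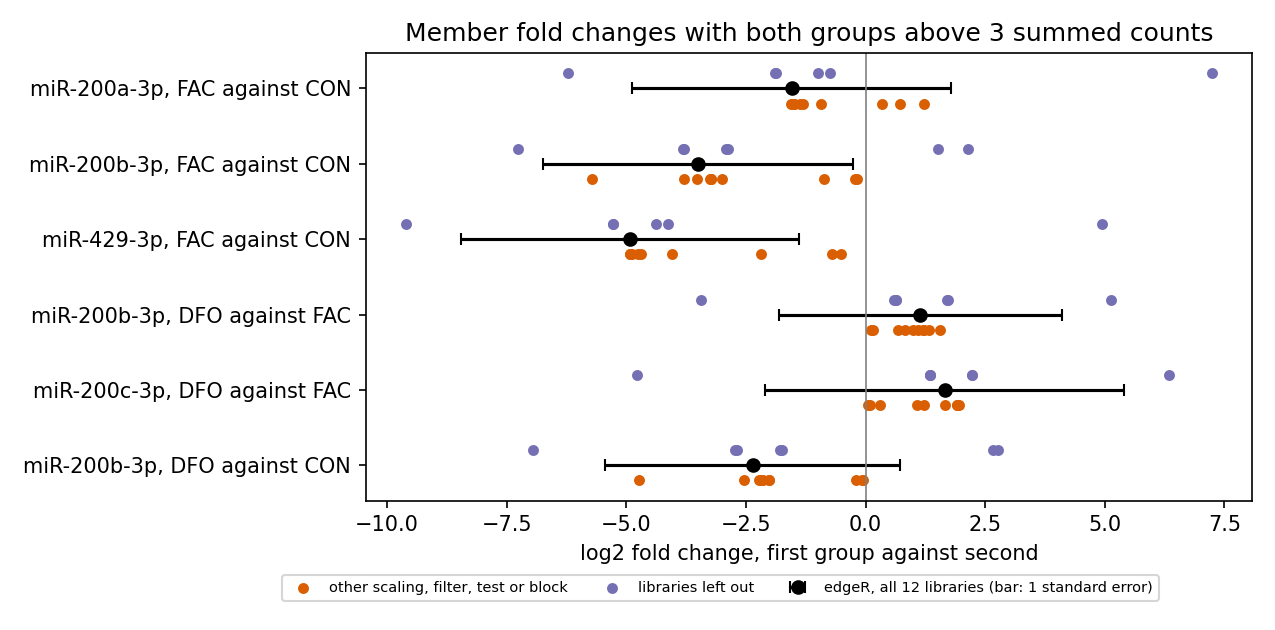
Log2 fold change of the members with more than 3 summed counts in both groups, from edgeR on all 12 libraries (black, bar of 1 standard error), under other scalings, filters, tests or a block (orange) and with libraries left out (purple). In each row at least 1 purple point lies on the other side of 0 from the black one. Those points come from fits that left 1 group under 3 counts of the member, so they are not measured folds.

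The miRNAs whose levels went most with a member could be sought for miR-200b-3p alone, the only member with a count in at least 6 libraries. Over the 12 libraries, the highest Spearman rho on log2 CPM among 301 candidates was 0.80 for mmu-miR-187-5p, followed by 0.75 for mmu-miR-467a-3p and 0.71 for mmu-miR-3077-3p. Pearson's r was 0.49, 0.62 and 0.45. These are descriptions, since libraries with 0 counts take a value set by depth alone.

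Of 13 other miRNAs linked to epithelia, 12 were present and 10 tested, and 4 of the 12 had a lower mean level than miR-200b-3p. Their summed level, of which miR-182-5p and miR-183-5p made up 87.6%, was between 2122 and 6375 CPM in CON, 5895 and 15025 in FAC, 3013 and 8527 in DFO and 3388 and 8618 in VE. In FAC against CON, 1 of 10 passed, miR-182-5p, against 9.51% of all entries. Its log2 fold change of 1.38 (SE 0.64) lay at the median over all entries, also 1.38, while the list's median was 0.13. Over the 312 entries kept by the stricter filterByExpr filter on low counts the median was 0.079, below the value of miR-182-5p. Its unadjusted p was 0.0312 and its adjusted p 0.466 in edgeR's quasi-likelihood test. In DFO against FAC 0 of 10 passed, in VE against FAC and in DFO against CON 1 of 10, and in VE against CON 2 of 10, each of the last 4 lower. Over all entries, between 7.68% and 12.2% passed in a comparison. The list's median log2 fold change in VE against CON was -0.07, beside a median of 0 over all entries. Not every entry was lower in VE than in CON. In VE miR-375-3p had 1534, 1117 and 1698 counts, beside 273, 133 and 3 in CON. It had 565, 664 and 1393 in FAC and 17, 373 and 102 in DFO. For miR-194-5p the counts were 0, 172 and 120 in VE, 0, 0 and 2 in CON, 126, 119 and 0 in FAC and 1, 0 and 0 in DFO. Neither passed the threshold in any comparison.

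miR-203-3p, a miRNA of skin and other stratified epithelia, had 57, 3 and 182 counts in CON, 724, 659 and 180 in FAC, 5, 30 and 51 in DFO and 1, 1 and 0 in VE. All 9 libraries outside VE lay above the 3 VE libraries. Its pooled level was 446-fold higher in CON than in VE (exact counting interval 122 to 3700), with an adjusted p of 0.0252 (edgeR's quasi-likelihood test) that ran from 0.00755 to 0.418 with single libraries left out, the highest without CON replicate 3. The call was also lost without any 1 of the VE libraries (0.137 to 0.199), with library read totals (0.0888), the filterByExpr filter (0.143), the compared groups alone (0.0793), the replicate block (0.193) and both limma fits (0.169 and 0.256). Without CON replicate 3, its top library, the pooled level was 157-fold higher in CON (41.6 to 1326). Against FAC the adjusted p was 0.0607 (edgeR's quasi-likelihood test), with a pooled level 374-fold higher in FAC (103 to 3090).

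miR-205-5p, a miRNA of basal epithelial cells, had 78 counts in CON replicate 1, 68 in FAC replicate 1 and 0 in the other 10 libraries. These were the same 2 libraries that held miR-200a-3p and miR-429-3p, a match that was seen in the data and not tested. It was lower in DFO and in VE than in CON before adjustment, with CON counts in replicate 1 alone (unadjusted p of 0.0362 and 0.0369, adjusted p of 0.632 and 0.460 in edgeR's quasi-likelihood test).

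Single miRNAs on the lists of other cell types also passed the threshold in some comparisons, and their part in the members' values was not tested. Over all entries tested, between 7.68% and 12.2% passed in a comparison. The 7 blood cell miRNAs present summed to between 83287 and 168570 CPM in VE and between 8229 and 97508 in the other groups. The joint entry of miR-486a-5p and miR-486b-5p made up 98.7% of that sum by mean level, so it was nearly the level of this entry alone. Of the list, 2 of 5 tested were higher in VE than in FAC and than in CON, miR-451a and the joint entry. The adjusted p of miR-451a was 0.444 and 0.460 (edgeR's quasi-likelihood test), and 0 of 5 passed in the other 3 comparisons. The joint entry rose in VE by 1.67 on the log2 scale against FAC (adjusted p = 0.00453) and by 1.57 against CON (adjusted p = 0.00821, edgeR's quasi-likelihood test), with highest adjusted p of 0.377 and 0.188 when single libraries were left out. The call against FAC was lost without FAC replicate 1 or 2 or VE replicate 1 or 3, and that against CON without CON replicate 1 or 3 or VE replicate 1 or 3. The call against FAC was further lost in DESeq2 (0.396), with the filterByExpr filter (0.374), library read totals (0.502), the compared groups alone (0.0617) and both limma fits (0.347 and 0.491), and its log2 fold change was 3.56 without FAC replicate 3. The call against CON was further lost in DESeq2 (0.492), with the filterByExpr filter (0.388), the replicate block (0.118) and limma on log2(RPM + 0.1) (0.0893). Among the list's tested entries that did not pass, miR-150-5p had 4, 184 and 532 counts in VE and 385, 6 and 142 in CON. It had 50, 178 and 485 in FAC and 308, 96 and 489 in DFO. For miR-142a-5p there were 192 counts in VE replicate 3, 24 in FAC replicate 2 and at most 1 elsewhere. The 17 counts of miR-223-3p were all in FAC replicate 2. miR-142a-3p and miR-144-3p, also of blood cells, had 1 count each in all.

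The 6 stromal miRNAs, of theca cells and fibroblasts, summed to between 13073 and 18780 CPM in VE, below the 22835 to 110107 CPM of the other libraries, and miR-143-3p made up 98.9% of that sum by mean level. 1 of 6 was lower in VE than in FAC, in VE than in CON and in DFO than in CON, each time miR-143-3p, and 0 of 6 passed in the other comparisons. In VE against CON its log2 fold change was -1.95 (SE 0.42, adjusted p = 0.00103, edgeR's quasi-likelihood test). On log2(RPM + 1) in limma that value was 0.21, and the adjusted p was 0.132 without CON replicate 1 and 0.0564 without VE replicate 2. With library read totals the log2 fold change was -0.33 (adjusted p = 0.897, edgeR's quasi-likelihood test).

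The 6 granulosa-linked miRNAs found summed to between 1215 and 5557 CPM over the 12 libraries, and miR-21a-5p, which many cell types express, made up 51.0% of that sum by mean level. 1 of 6, miR-503-5p, was lower in DFO than in FAC (unadjusted p of 0.0220, adjusted p of 0.273) and than in CON (unadjusted p of 0.00758, adjusted p of 0.373, edgeR's quasi-likelihood test), and 0 of 6 passed in the other 3 comparisons. Of 9 listed oocyte miRNAs 2 were present, at 0 in DFO and at no more than 42.9 CPM elsewhere. 1 of these 2, miR-294-3p, was lower in DFO than in CON (unadjusted p of 0.0364, adjusted p of 0.632, edgeR's quasi-likelihood test), and 0 of 2 passed in the other comparisons. The CON counts of miR-294-3p were 52, 0 and 1, so this difference rested on CON replicate 1.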

How the data were processed

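Small RNA reads of 15 to 41 bp from granulosa cell exosomes were analysed in 12 libraries, 3 in each of 4 groups. The authors deposited raw read counts for 637 miRNA entries, 5 of which join the names of 2 miRNAs. They also deposited RPM values, which the file names call TPM although each equals the count scaled to 1000000 reads of a single library total of 22631206 to 24845945 reads and no length enters. The processing notes name mm9. The aligner, miRNA database and treatment of reads with several matches are not given in the sources used here.

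The 547 entries that summed to 10 counts or more were fitted on their counts in one model of 4 groups with TMM factors and the quasi-likelihood test of edgeR 4.0.16 (R 4.3.3). The threshold was a fold change of at least 1.5 and an unadjusted p under 0.05, with Benjamini-Hochberg adjustment over all 547. The test is two-sided, and standard errors were derived from its F statistic. The common biological coefficient of variation was 1.57. Fitted fold changes are given where both groups had more than 3 counts with all 12 libraries in. Leaving a library out could take a group below that. Elsewhere pooled CPM, counts scaled to 1000000 miRNA counts, were compared, against a floor of 3 counts over a group at 0, or with an exact counting interval at 1 to 3 counts. These ratios ignore the spread between libraries.

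Alternatives used other scaling factors, filters, groups, DESeq2 1.42.0, limma 3.58.1 on log2(RPM + 1) and log2(RPM + 0.1), a replicate block, and single libraries left out. Leaving out CON replicate 1 and FAC replicate 1 together, or the top library of a ratio, was chosen after seeing the data. Named were the 5 members, the arms found, the 3 entries most correlated with a member counted in 6 or more libraries, and list entries past the threshold. miR-142a-3p, miR-142a-5p, miR-144-3p, miR-150-5p, miR-223-3p, miR-194-5p and miR-375-3p were named after their values were seen. The members and the 5 lists (epithelial-linked, stromal, blood cell, oocyte and granulosa-linked miRNAs) were chosen with earlier results of these data known. No 2 libraries agreed within sampling noise (lowest chi-square per degree of freedom 101.9 over 66 pairs).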

Additional observations from a re-analysis of the deposited data

How the results depend on the processing

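Of 97 alternative values of the 6 fitted fold changes, 80 kept direction and side of the threshold, 5 from DESeq2 kept direction but had no p, 11 reversed and 1 newly passed, and no alternative gave a member an adjusted p under 0.05. In FAC against CON, miR-200a-3p reversed to a log2 fold change of 1.22 with library read totals, 0.35 in limma at a pseudocount of 1 RPM and 0.72 at 0.1 RPM. With CON replicate 1 and FAC replicate 1 both left out, miR-200b-3p reversed to 2.14 in FAC against CON and 2.77 in DFO against CON. CON then held 1 count of it. Leaving out single libraries gave -6.23 to 7.25 for miR-200a-3p, -7.27 to 1.52 for miR-200b-3p and -9.60 to 4.94 for miR-429-3p in FAC against CON. It gave -3.44 to 5.13 for miR-200b-3p and -4.78 to 6.33 for miR-200c-3p in DFO against FAC, and -6.94 to 2.67 for miR-200b-3p in DFO against CON. Each end of these ranges left 1 of the groups with fewer than 3 counts of the member, so the ends are not measured folds.

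The 3 members past the threshold in VE against CON became 1 with library read totals, 1 with the filterByExpr filter (1 member tested), 0 in each limma fit and 0 without CON replicate 1 and FAC replicate 1. The count stayed at 3 with total miRNA counts. It was 2 with RLE scaling factors, with no filter on low counts and with the compared groups alone (3 members tested). Single libraries left out gave 0 to 2: 0 without CON replicate 1 or any VE library and 2 without CON replicate 2 or 3. In FAC against CON they gave 0 to 1. DESeq2 gave no p for 3 of the 4 members, so no count was formed. With the replicate number as a block, 1 member passed in VE against CON. The methods name no pairing, so the numbers were not taken as pairs in the main fit. Same-numbered libraries did not deviate together (mean r -0.00605 over 18 pairs, -0.0769 to 0.0925). Different-numbered libraries had a mean r of 0.00318 over 36 pairs (-0.115 to 0.0934).

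The calls over all entries depended on the scale. In FAC against CON, 13 entries were higher and 39 lower, against 23 and 29 with total miRNA counts, 159 higher and 0 lower with library read totals, and 195 and 203 higher with the limma fits. The cause was not tested. The miRNA counts were lowest in CON at similar library read totals, which set the highest floors there, and 3 libraries a group cannot separate a level present in 1 of them from 0.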
